A study of Homo sapiens with 12 samples.

Results

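The replication-dependent histone genes encode the linker histone H1 and the core histones H2A, H2B, H3 and H4 that package newly replicated DNA. Members were taken as every row of the deposited count table whose symbol began with HIST1H, HIST2H, HIST3H or HIST4H. This gave 73 of 26485 genes, of which 6 belonged to family H1, 18 to H2A, 20 to H2B, 14 to H3 and 15 to H4. All 73 matched an entry of the RefSeq gene table for GRCh38, which placed 56 on chromosome 6, 16 on chromosome 1 and 1 on chromosome 12 and described 3 as pseudogenes.

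RNA-seq was performed on HEK293, a human embryonic kidney cell line of wild-type (WT) genotype, after transient transfection of a plasmid coding for 1 of 3 forms of the retrotransposon-derived protein PEG10 or for a control. The constructs were PEG10 gag-pol, PEG10 gag, PEG10 NC (the nucleocapsid part alone) and the control LifeAct-Dendra2, a fluorescent actin-binding protein, all driven by a CMV promoter in cells that also express their own PEG10. Each construct was transfected into 3 independent passages, so that the 12 libraries fell into 4 groups of 3. Messages were enriched by their poly(A) tails before sequencing, and cells were harvested at a single time after transfection.

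Histone messages of this class are made mainly in S phase and are the only known animal messenger RNAs that usually end in a conserved stem-loop rather than in a poly(A) tail. The stem-loop is bound by SLBP, and cleavage just behind it needs the U7 small nuclear RNA. Once DNA synthesis stops the messages are uridylated and degraded. Some of the genes also give polyadenylated messages, which become more prominent in differentiated or arrested cells, and a poly(A)-selected library captures these and whatever untailed RNA is carried along. The values below therefore describe the histone RNA that passed poly(A) selection, and a change in amount cannot be told apart from a change in tailing.

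The stem-loops are shown because they are the feature that sets these genes apart in such a library. In the hg38 reference genome, the 100 bases behind the stop codon were searched on the gene's strand for 6 bases, a loop of 4 bases and the exact reverse complement of the 6 bases, keeping the match farthest from the stop codon. A match was present behind 68 of the 70 members with a coding model (97.1%) and behind 4.37% of 19535 other protein-coding genes. It began 23 to 68 bases behind the stop codon. All 15 H4 genes had the stem GGCCCT and all 53 matches of the other families had GGCTCT, whereas 4 of the other protein-coding genes had either stem. HIST1H2AG and HIST1H2AK had no exact match. The stem-loops of 8 members that the results turn on are printed with both arms of the stem in capitals.
HIST1H1C, chr6:26055739-26055764, minus strand: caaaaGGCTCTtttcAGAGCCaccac
HIST1H1E, chr6:26157090-26157115, plus strand: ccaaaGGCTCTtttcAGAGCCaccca
HIST1H2AC, chr6:26124664-26124689, plus strand: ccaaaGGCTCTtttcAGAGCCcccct
HIST1H2AH, chr6:27147541-27147566, plus strand: acaaaGGCTCTtttcAGAGCCattct
HIST1H2BK, chr6:27146361-27146386, minus strand: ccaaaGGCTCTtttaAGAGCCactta
HIST1H3E, chr6:26225591-26225616, plus strand: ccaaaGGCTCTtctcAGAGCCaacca
HIST1H4B, chr6:26026896-26026921, minus strand: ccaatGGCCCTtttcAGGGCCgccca
HIST1H4E, chr6:26204996-26205021, plus strand: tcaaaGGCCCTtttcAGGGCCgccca

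The polyadenylation signal AATAAA (searched on the transcript strand in the last 50 bases of each GENCODE transcript model) was found at the end of a model for 17 of 73 members, compared with 74.9% of the other protein-coding genes. These 17 members took up 22.3% of the members' counts. By the spans in RefSeq, 10 members were longer than 1000 bases, and these took up 49.8% of the counts.

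Library totals ranged from 30625725 to 45316749 counts. Of the 73 members, 49 passed the filter on low counts, 18 had some counts but did not pass it, and 6 had no count in any library. The 6 were HIST2H2AA3, HIST2H2AA4, HIST2H3A, HIST2H3C, HIST2H4A and HIST2H4B, and each had a partner in this group whose coding sequence was identical base for base. HIST1H4J and HIST1H4K also share 1 coding sequence. How reads that fit several places were counted is not stated, so that a listed 0 for such copies does not show a lack of RNA, and values of other close copies may also be affected. When the gag libraries were left out of the filter, 47 members passed it.

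PEG10, the transfected gene, had 7817 to 14243 counts in control libraries, 1267102 to 2815833 in gag-pol, 1437939 to 2370308 in gag and 98420 to 132613 in NC. NC libraries thus held far fewer PEG10 reads than those of gag-pol or gag. The 6 markers of HEK293 (PAX2, VIM, NEFM, INA, KRT8 and KRT18) summed to 818 to 1143 CPM. CPM here are counts relative to the library total multiplied by the library's TMM scaling factor. The 7 markers of other cell types summed to 1.27 to 3.75 CPM, except in gag replicate 2 with 21.6, where 1 gene, MYH7, had 728 normalized counts against at most 11.2 in any other library. PTPRC, CD3E and HBB were at 0 in most libraries and reached at most 7.53. ALB, the serum albumin gene, had 51.9, 21.3 and 48.4 normalized counts in control, 17.1, 5.85 and 6.02 in gag-pol, 45.9, 28.4 and 24.7 in gag and 12.3, 13 and 16.5 in NC. It was the 1 marker of the 4 tested that was called between gag-pol and control (edgeR, log2 fold change -2.09, SE 0.53, adjusted p = 0.0127), and it was named after its values were seen. Of all genes, 11.3% were called in that comparison. The part of these markers in the histone values was not tested.

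All members together amounted to 296 to 499 CPM. The full sum was 353.6, 373.5 and 406.3 in control replicates 1, 2 and 3, 296.4, 331.9 and 456.1 in gag-pol, 498.9, 454.9 and 428.5 in gag, and 358.3, 418.5 and 434.8 in NC. Gag was above control here but overlapped with gag-pol and NC. The 3 genes HIST1H2BK, HIST3H2A and HIST1H1C held 57.4% to 71.7% of the members' counts in each library. Without these 3 genes, the sum was 120, 115 and 125 CPM in control replicates 1, 2 and 3, 105, 112 and 129 in gag-pol, 212, 168 and 134 in gag, and 127, 121 and 130 in NC. With TMM scaling, every gag library was above every library of the other groups, with gag replicate 1 farthest away. Gag replicate 3, at 134, was closest to the other groups (NC replicate 3 at 130). It had the lowest TMM factor, 0.9395, where NC replicates 1 and 3 had 1.037 and 1.001. Without TMM scaling, gag replicate 3 falls below both of these NC libraries, so its place above all other groups rests on the scaling. Fewer cells that make histone RNA and less histone RNA per cell cannot be told apart in such bulk samples.

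Values of single genes are given as normalized counts, that is, counts divided by the library's size and its TMM scaling factor and set to the mean library total. The tested members were not evenly placed among the constructs (heat map of the tested genes). The group with the highest mean was gag for 38 of the 49, control for 7, NC for 4 and gag-pol for 0. The lowest mean was found in gag-pol for 24, in control for 14, in NC for 10 and in gag for 1. These rankings were not made over all genes, so the share to set them against is not known.

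**Figure D1:**
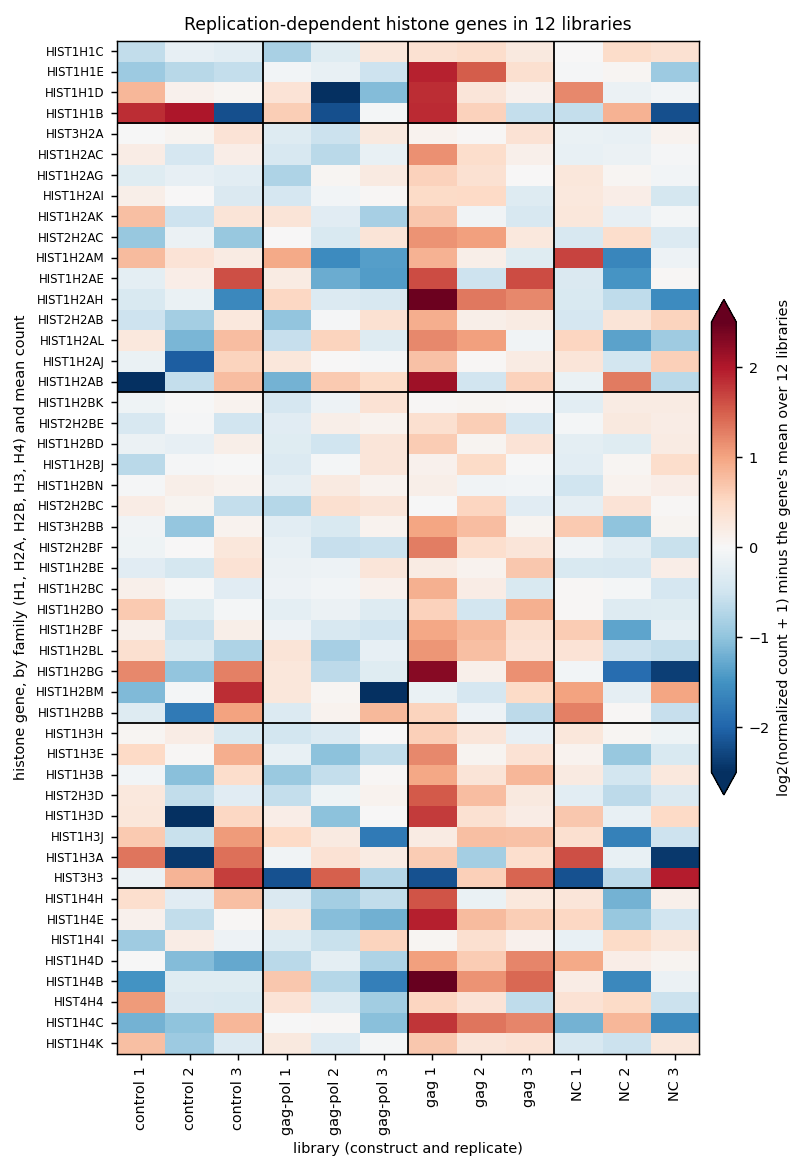
Heat map of the 49 tested histone genes (rows, by family and mean count) in 12 libraries (columns). Colours give log2(normalized count + 1) minus the gene's mean over the libraries. The gag columns, above all gag replicate 1, are mostly red. Of the 49 genes, 38 had their highest group mean in gag, a count that was not made over all genes.

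When all constructs and the control were compared together by an F test of edgeR, 17 of the 49 tested members passed at an adjusted p under 0.05, beside 20.6% of all 17176 genes tested. By family these were 3 of 4 H1 genes, 4 of 13 H2A, 3 of 16 H2B, 3 of 8 H3 and 4 of 8 H4. HIST1H4D passed here but in none of the pairwise comparisons. Its normalized counts were 19.7, 8.87 and 7.53 in control, 12.1, 16.6 and 11.2 in gag-pol, 41.1, 31.4 and 47.3 in gag and 39.0, 22.3 and 20.9 in NC (edgeR, adjusted p = 0.0298). Its gag and NC libraries were all above its control libraries. All counts of called members here come from a model with the replicate number, and with no replicate block 0 members were called in any comparison of constructs.

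Gag was first compared with the control. Most tested histone genes had higher values with gag, and few passed the test. Of the 49 tested members, 4 rose and 0 fell, where 1.08% of all genes were called and 0.699% were called higher. The 4 were the linker gene HIST1H1E, the H2A genes HIST1H2AH and HIST2H2AC, and the H4 gene HIST1H4E. The log2 fold change was positive for 41 of the 49, where it was positive for 8712 of all 17176 genes. Its median was 0.45, compared with 0.00 over all genes. In all 3 replicate numbers 22 members were higher in gag, a count that was not made over all genes.

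The gag effect differed in size between families, with a median log2 fold change of 0.58 in H1, 0.63 in H2A, 0.43 in H2B, 0.23 in H3 and 0.92 in H4. These medians rest on 4, 13, 16, 8 and 8 tested genes, and differences between families were not tested. The member with the largest change was the H4 gene HIST1H4B. Its normalized counts were 4.15, 10.7 and 10.8 in control and 103, 30.4 and 38.1 in gag. The groups did not overlap, but the difference missed the threshold (edgeR, log2 fold change 2.43, SE 0.63, adjusted p = 0.0611).

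Leaving out 1 library moved the count of 4 widely. It was 1 without control replicate 1, gag replicate 1 or gag replicate 2, 2 without control replicate 2 and 9 without gag replicate 3, with the median between 0.33 and 0.66 throughout. Counts over all genes in the same fits are not given here, so these moves cannot be read as particular to histone genes.

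**Figure D2:**
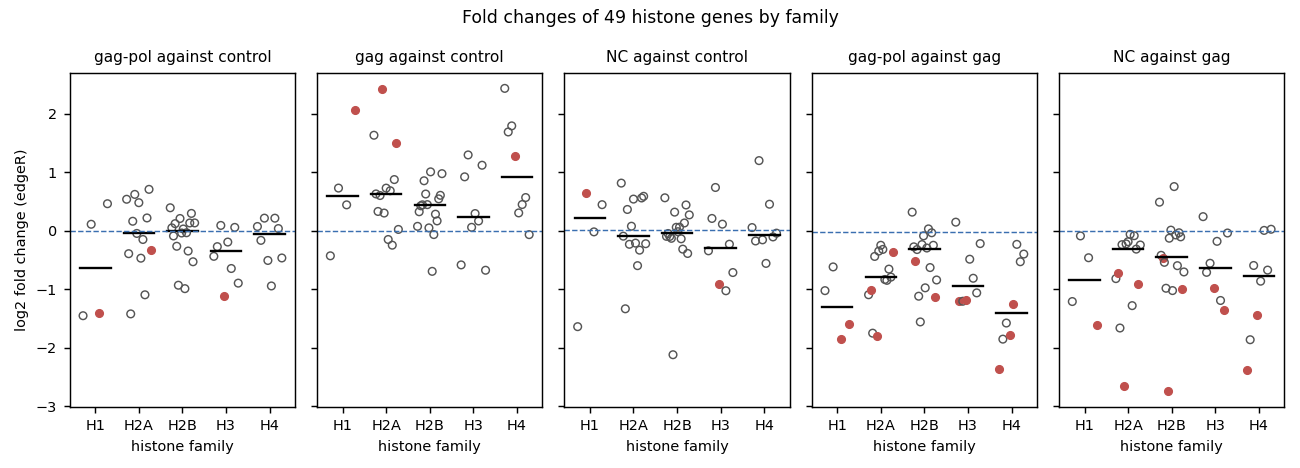
Log2 fold changes (edgeR) of 49 histone genes by family in 5 comparisons. Each circle is a gene, filled where the adjusted p was under 0.05, black bars are family medians and the dashed line is the median of all 17176 genes. Points lie mostly above the dashed line for gag against control and below it for gag-pol and NC against gag.

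The gag-pol and NC constructs were then set against gag. Gag-pol carries gag with the pol-like part behind it, and NC is a piece of gag. With gag-pol, 12 of 49 tested members were lower than with gag and 0 were higher, where 6.46% of all genes were called and 3.42% were called lower. The log2 fold change was negative for 46 of the 49 (all genes: 8978 of 17176) and the median was -0.79 (all genes: -0.01). With NC, 11 members were lower and 0 were higher, where 16.9% of all genes were called and 8.12% were called lower. Here 43 of 49 were negative (all genes: 8720 of 17176) with a median of -0.56 (all genes: -0.01). In each of the 2 comparisons, 26 members were lower in all 3 replicate numbers, a count that was not made over all genes. Both comparisons share the gag libraries.

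The count for gag-pol against gag was 7 without gag-pol replicate 1, 1 without gag replicate 1 and 6 without gag replicate 2. For NC against gag it was 3 when gag replicate 1 and 6 when NC replicate 1 was left out. The median stayed between -0.90 and -0.51 for gag-pol and between -0.64 and -0.43 for NC in the fits without 1 library. Here too, counts over all genes in these fits are not given.

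Against the control itself, 3 of 49 tested histone genes were called with gag-pol and 2 with NC. Both comparisons share the control libraries with that of gag. With gag-pol, 0 of 49 rose and 3 fell, HIST1H1D, HIST1H3E and HIST3H2A. Of all 17176 genes 11.3% were called, 941 higher and 1001 lower, so the share that fell was close to that over all genes. The median was -0.05 (all genes: 0.00). With NC, HIST1H1C rose and HIST1H3E fell. Of all genes 11.2% were called, 1037 higher and 885 lower, and the median was again -0.05 (all genes: 0.00). Without 1 library, the gag-pol count was between 1 and 5 and the NC count between 0 and 3.

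**Figure D3:**
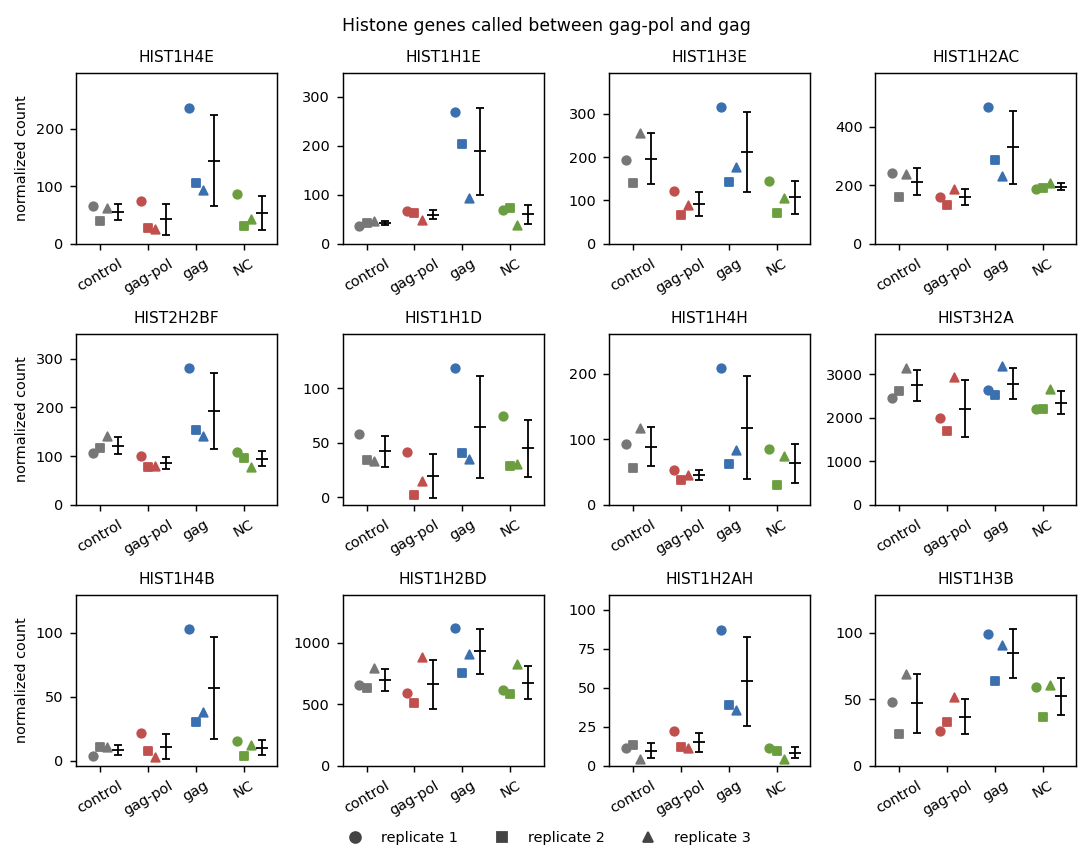
Normalized counts of the 12 histone genes called lower in gag-pol than in gag, by construct. Symbols mark the replicate number, black bars the mean and SD of 3 libraries, and each panel has its own linear axis. For HIST1H4E, HIST1H1E, HIST1H4B, HIST1H2AH and, narrowly, HIST2H2BF all 3 gag points lie above all points of the other groups. How often this occurs over all genes was not counted.

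Of the linker histones, which bind DNA between nucleosomes, HIST1H1E gave the smallest adjusted p between gag and control. Its normalized counts were 37.4, 43.5 and 46.2 in control, 67.5, 62.4 and 49 in gag-pol, 270, 205 and 93.6 in gag and 69.7, 73.5 and 37.5 in NC. The lowest gag library was above the highest of any other group. HIST1H1E rose with gag against control (edgeR, log2 fold change 2.05, SE 0.30, adjusted p = 0.000577). It was lower than in gag with gag-pol (-1.59, SE 0.29, adjusted p = 0.00487, edgeR) and with NC (-1.61, SE 0.29, adjusted p = 0.00114, edgeR). These 3 calls used the same gag libraries, and the first and the last held in all 12 fits that left out 1 library.

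HIST1H1D, another linker histone, had 58.1, 34.6 and 33.3 normalized counts in control, 41.3, 1.95 and 14.6 in gag-pol, 118, 40.2 and 35 in gag and 74.9, 28.8 and 30.9 in NC. Gag-pol was the lowest of the 4 in every replicate number, although its libraries overlapped with the others. HIST1H1D fell with gag-pol against control (edgeR, log2 fold change -1.40, SE 0.46, adjusted p = 0.0494) and was lower than in gag (-1.84, SE 0.45, adjusted p = 0.017, edgeR). The first of these calls was lost in 10 of the 12 fits without 1 library.

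HIST1H1C was the linker gene with the most counts. It had 1290, 1705 and 1636 in control, 1126, 1588 and 2375 in gag-pol, 2573, 2647 and 2336 in gag and 1971, 2704 and 2551 in NC. Both gag and NC libraries were all above the control libraries. The rise passed the threshold in NC (edgeR, log2 fold change 0.64, SE 0.18, adjusted p = 0.0494) but not in gag (0.73, SE 0.18, adjusted p = 0.103, edgeR), a difference in call that comes with NC and gag values that were not told apart (-0.09, SE 0.18, adjusted p = 0.792, edgeR). The NC call was lost in 8 of the 12 fits without 1 library. HIST1H1B, the tested member with the largest change in gag-pol against control, had 0 to 17.8 normalized counts in all groups and did not pass (edgeR, log2 fold change -1.45, SE 1.05, adjusted p = 0.394).

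Among the H2A genes, HIST1H2AH had 11.4, 13.3 and 4.30 normalized counts in control, 22.2, 11.7 and 11.2 in gag-pol, 87.0, 39.2 and 36.0 in gag and 11.3, 9.30 and 4.41 in NC. All gag libraries were above all others. The gene rose with gag (edgeR, log2 fold change 2.42, SE 0.52, adjusted p = 0.0205) and was lower than in gag with gag-pol (-1.80, SE 0.49, adjusted p = 0.0301, edgeR) and with NC (-2.66, SE 0.53, adjusted p = 0.00232, edgeR). Of the 12 fits without 1 library, 5 lost the first of these calls, 6 lost the second and 0 lost that of NC.

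HIST2H2AC had 37.4, 65.7 and 37.6 in control, 73.5, 55.6 and 91.1 in gag-pol, 160, 150 and 87.5 in gag and 55.4, 99.5 and 57.3 in NC. It rose with gag against control (edgeR, log2 fold change 1.50, SE 0.31, adjusted p = 0.017) and was lower in NC than in gag (-0.91, SE 0.31, adjusted p = 0.0422, edgeR). Each gag library was above each control library. The gag-pol libraries overlapped with both and passed against neither. The call against control was lost in 3 of the 12 fits without 1 library and that of NC against gag in 6.

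HIST1H2AC had 241, 159 and 238 in control, 160, 133 and 187 in gag-pol, 469, 288 and 232 in gag and 187, 191 and 209 in NC. Its gag libraries were above those of gag-pol and NC but overlapped with control. It was lower than in gag with gag-pol (edgeR, log2 fold change -1.02, SE 0.21, adjusted p = 0.00749) and with NC (-0.72, SE 0.21, adjusted p = 0.0201, edgeR). A long transcript model lies over this gene on the same strand, so that its reads may not all be its own.

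HIST3H2A, the H2A gene with the most counts, had smaller differences between groups. It had 2466, 2619 and 3158 in control, 1994, 1704 and 2952 in gag-pol, 2648, 2533 and 3192 in gag and 2208, 2197 and 2656 in NC. In every replicate number gag-pol and NC were below control. The fall passed in gag-pol against control (edgeR, log2 fold change -0.33, SE 0.09, adjusted p = 0.0201) and not in NC (-0.22, SE 0.09, adjusted p = 0.116, edgeR). Replicate 3 was high in each group, and the replicate numbers differed for this gene (edgeR F test, adjusted p = 0.0002).

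Among the H2B genes, HIST1H2BK had the highest count of all members and passed no comparison of constructs, with a mean of 5401 ± 380 in control, 5339 ± 1473 in gag-pol, 5554 ± 30.9 in gag and 5667 ± 1007 in NC (SD, n = 3 each). Its log2 fold change was between -0.09 and 0.06 in the pairwise comparisons, with an SE of 0.11 in each. Its span in RefSeq covers that of HIST1H4I on the other strand, but in GENCODE no exon of another gene overlaps its exons. The annotation release and whether strand was used in counting are not stated.

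HIST1H2BD had 656, 630 and 799 in control, 588, 514 and 888 in gag-pol, 1124, 758 and 913 in gag and 614, 586 and 830 in NC. It was lower than in gag with gag-pol (edgeR, log2 fold change -0.51, SE 0.13, adjusted p = 0.0247) and with NC (-0.47, SE 0.13, adjusted p = 0.0191, edgeR), in 3 of 3 replicate numbers each time although the groups overlapped.

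HIST2H2BF, a gene of the chromosome 1 cluster, had 107, 116 and 141 in control, 101, 77.1 and 79.1 in gag-pol, 282, 154 and 142 in gag and 109, 95.8 and 78.2 in NC. Its gag libraries were above all others, with gag replicate 3 just above control replicate 3. FCGR1A overlaps this gene on the other strand. HIST2H2BF was lower than in gag with gag-pol (edgeR, log2 fold change -1.13, SE 0.24, adjusted p = 0.00866) and with NC (-0.99, SE 0.24, adjusted p = 0.00768, edgeR). HIST1H2BG was low throughout, with 23.9, 4.44 and 24.7 in control, 12.1, 5.85 and 7.74 in gag-pol, 50.8, 10.8 and 22.6 in gag and 9.23, 1.86 and 1.10 in NC. It was lower in NC than in gag (edgeR, log2 fold change -2.74, SE 0.69, adjusted p = 0.00916). It was also the member with the largest change in NC against control, which missed the threshold (-2.12, SE 0.71, adjusted p = 0.0536, edgeR).

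HIST1H3E, an H3 gene, was the member called against control with both gag-pol and NC. It had 194, 139 and 256 in control, 121, 66.3 and 88.5 in gag-pol, 316, 143 and 177 in gag and 146, 70.7 and 105 in NC. Every gag-pol library was below every control and gag library. It fell against control with gag-pol (edgeR, log2 fold change -1.12, SE 0.22, adjusted p = 0.00297) and with NC (-0.92, SE 0.22, adjusted p = 0.0112, edgeR), and the value for gag against control was 0.06 (SE 0.21, adjusted p = 0.946, edgeR). With gag-pol and NC averaged and set against the other groups, it gave the smallest adjusted p of any member (edgeR, log2 fold change -1.05, SE 0.16, adjusted p = 0.000114). HIST1H3E is one of the long gene models and has an AATAAA at the end of a transcript.

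HIST1H3B had 47.8, 24 and 68.8 in control, 26.2, 33.2 and 51.6 in gag-pol, 99.1, 63.7 and 90.5 in gag and 59.5, 36.3 and 60.6 in NC, and was lower in gag-pol than in gag (edgeR, log2 fold change -1.19, SE 0.33, adjusted p = 0.0329). HIST2H3D had 44.6, 24 and 30.1 in control, 24.2, 34.1 and 39.5 in gag-pol, 109, 63.7 and 44.2 in gag and 30.8, 23.2 and 28.6 in NC, and was lower in NC than in gag (edgeR, log2 fold change -1.35, SE 0.39, adjusted p = 0.0214). In both genes the gag libraries lay above those of the construct they were called against. The call was lost in 5 of the 12 fits without 1 library for HIST1H3B and in 4 for HIST2H3D. HIST1H3H, the H3 gene with the most counts, had group means of 208 to 300 and passed no comparison.

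The H4 genes, whose stem-loops carry the GGCCCT stem, had a median log2 fold change against gag of -1.41 for gag-pol and -0.77 for NC, beside -1.31 and -0.84 in H1. HIST1H4E had 65.4, 39.0 and 61.3 in control, 73.5, 28.3 and 25.8 in gag-pol, 236, 105 and 92.6 in gag and 87.2, 30.7 and 43.0 in NC. All gag libraries were above all others. It rose with gag against control (edgeR, log2 fold change 1.28, SE 0.29, adjusted p = 0.0293) and was lower than in gag with gag-pol (-1.79, SE 0.30, adjusted p = 0.00283, edgeR) and NC (-1.44, SE 0.29, adjusted p = 0.00272, edgeR). The calls against gag held in all 12 fits without 1 library, and that against control was lost in 4 of them.

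HIST1H4B, whose control and gag values are given above, had 22.2, 7.80 and 3.44 in gag-pol and 15.4, 3.72 and 12.1 in NC. All gag libraries were above these. It was lower than in gag with gag-pol (edgeR, log2 fold change -2.36, SE 0.61, adjusted p = 0.0223) and with NC (-2.38, SE 0.61, adjusted p = 0.0111, edgeR).

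HIST1H4H, the H4 gene with the most counts, had 92.4, 56.8 and 117 in control, 53.4, 38 and 44.7 in gag-pol, 208, 61.7 and 83.3 in gag and 85.1, 29.8 and 74.9 in NC. Gag-pol was below every control and gag library. It was lower in gag-pol than in gag (edgeR, log2 fold change -1.25, SE 0.32, adjusted p = 0.0209) and missed the threshold against control (-0.94, SE 0.32, adjusted p = 0.0553, edgeR).

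When gag-pol and NC were averaged and set against the average of gag and control, 11 of 49 members were lower and 0 were higher, where 24.7% of all genes were called and 11.6% were called lower. The median was -0.29 (all genes: -0.01). HIST1H2AE was called here alone. It had 14.5, 19.5 and 54.8 in control, 20.1, 6.83 and 6.02 in gag-pol, 55.6, 11.8 and 55.6 in gag and 13.3, 5.58 and 17.6 in NC (edgeR, log2 fold change -1.54, SE 0.42, adjusted p = 0.0106). When gag replicate 1 was left out, the count of 11 became 6.

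The medians of long and short gene models had the same sign. Against gag, 3 of 7 tested long models and 9 of 42 short ones were lower with gag-pol, with medians of -0.51 and -0.80, and 3 of 7 and 8 of 42 were lower with NC, with medians of -0.47 and -0.60. The 4 genes that rose with gag against control were all short models without an AATAAA, and the median was 0.43 in the long and 0.51 in the short models. Of the tested members, however, 42 were short models and 38 had no AATAAA. Against gag, 5 of 11 genes with an AATAAA and 7 of 38 without were lower with gag-pol. With NC these were 4 of 11 and 7 of 38. None of these differences between classes was tested.

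Replicate numbers, which stand for the passage, also differed for some histone genes. An F test of edgeR called 13 of 49 members, a smaller share than the 52.8% of all genes. HIST1H4E was lower in replicates 2 (edgeR, log2 fold change -1.21, adjusted p = 0.00123) and 3 (-0.99, adjusted p = 0.00343, edgeR) than in replicate 1. HIST1H1D was also lower in replicates 2 (edgeR, log2 fold change -1.61, adjusted p = 0.00259) and 3 (-1.36, adjusted p = 0.00537, edgeR) than in replicate 1. In these genes gag replicate 1 was the highest library of all. Other members went the other way: HIST3H2A (edgeR, log2 fold change 0.37, adjusted p = 0.000661) and HIST1H2BK (0.36, adjusted p = 0.00769, edgeR) were higher in replicate 3 than in replicate 1.

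**Figure D4:**
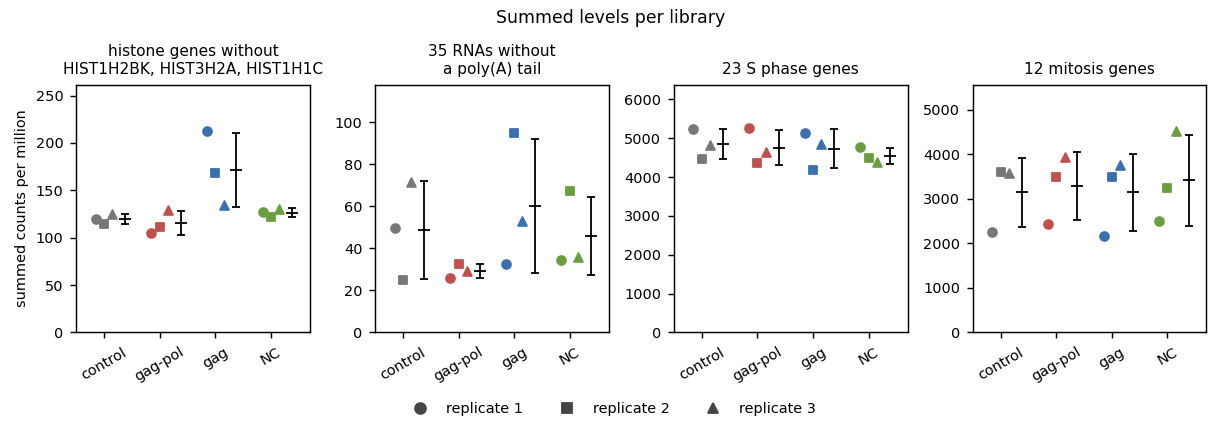
Summed CPM (with TMM scaling) in each library for the histone genes without the 3 most counted ones, 35 RNAs without a poly(A) tail, 23 S phase genes and 12 mitosis genes. Symbols mark the replicate number and black bars the mean and SD of 3 libraries. With this scaling, the 3 gag libraries lie above all others in the first panel alone.

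Values that could move with the histone signal were read from fixed lists. Against control, 1.08% of all genes were called with gag, 11.3% with gag-pol and 11.2% with NC. These are the shares to set each list's calls against control beside. The 35 RNAs that lack a poly(A) tail, among them RN7SK, RN7SL1 and small Cajal body RNAs, were taken as a rough gauge of untailed RNA. Whether their sum measures the untailed RNA that a library held was not tested, and 15 of the 35 passed the filter on low counts. The 35 RNAs summed to 49.9, 25.1 and 71.6 CPM in control, 25.8, 32.6 and 29.2 in gag-pol, 32.5, 94.7 and 53.0 in gag and 34.3, 67.2 and 35.9 in NC. Gag overlapped with each of the other groups, and gag replicate 1, with the most histone RNA, was the lowest of the gag libraries. None of the 15 tested RNAs of the list was called between gag and control (edgeR, 0 at an unadjusted p under 0.05 too). With gag-pol against control 2 of 15 fell, SCARNA12 (edgeR, log2 fold change -0.96, SE 0.18, adjusted p = 0.00175) and the telomerase RNA TERC (-2.66, SE 0.84, adjusted p = 0.042, edgeR), and the median was -0.59. SCARNA12 was also lower in NC than in control and in gag-pol than in gag. The list's median against gag was -0.72 for gag-pol and -0.32 for NC, the same direction as the histone genes, and its part in their values was not tested.

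Of 23 genes of S phase, 0 were called between gag and control (edgeR, 8 at an unadjusted p under 0.05, 4 of them higher), with a median of 0.07. With gag-pol against control 4 rose, the thymidylate synthase gene TYMS (edgeR, log2 fold change 0.45, SE 0.09, adjusted p = 0.00286), the ribonucleotide reductase gene RRM2, the cyclin gene CCNE1 and the transcription factor gene E2F8, and the replicative helicase gene MCM5 fell. With NC against control TYMS and RRM2 rose and the helicase genes MCM2 and MCM5 fell. Of all genes, 1.08% were called with gag, 11.3% with gag-pol and 11.2% with NC. Both helicase genes were named after their values were seen. The sums for S phase ranged from 4174 to 5148 CPM in gag and from 4472 to 5247 in control. Of 12 mitosis genes, 0 were called between gag and control (edgeR, 0 at an unadjusted p under 0.05), 2 rose with gag-pol (TOP2A and CDK1) and 3 with NC (TOP2A, CDK1 and AURKB). The part of the cell cycle in the histone values was not tested.

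The 14 processing genes act on the 3′ end or the transcription of histone messages. SLBP had 4127, 3758 and 3471 normalized counts in control, 4838, 3842 and 4209 in gag-pol, 4199, 3638 and 3837 in gag and 4033, 4122 and 3778 in NC. The groups overlapped and it passed no comparison with control. None of the list was called between gag and control (edgeR, 1 lower at an unadjusted p under 0.05). SRRT, which joins the cap-binding complex to 3′ end formation, fell with gag-pol (edgeR, log2 fold change -0.60, SE 0.09, adjusted p = 0.000195) and NC (-0.63, SE 0.09, adjusted p = 0.000282, edgeR), and CASP8AP2, a protein of the histone locus body, fell with NC (-0.36, SE 0.11, adjusted p = 0.0435, edgeR). Of the 7 genes of histone message decay, ZCCHC6, a uridylyltransferase, fell with gag-pol (edgeR, log2 fold change -0.29, SE 0.09, adjusted p = 0.0494) and NC (-0.40, SE 0.09, adjusted p = 0.0101, edgeR). None of the 7 was called with gag (edgeR, 0 at an unadjusted p under 0.05).

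Replacement histones, which are not confined to S phase and come mostly from polyadenylated messages, were listed as 12 genes, 11 of them tested. H1F0, a linker histone of this kind, was highest on average in gag and lowest in gag-pol. It had 11190, 9233 and 11270 in control, 10640, 6206 and 7339 in gag-pol, 19420, 12530 and 13200 in gag and 14060, 8679 and 9796 in NC. H1F0 rose with gag (edgeR, log2 fold change 0.48, SE 0.09, adjusted p = 0.00825) and fell with gag-pol against control (-0.43, SE 0.09, adjusted p = 0.005, edgeR). It was lower than in gag with gag-pol (-0.91, SE 0.09, adjusted p = 1.14e-05, edgeR) and with NC (-0.48, SE 0.09, adjusted p = 0.00192, edgeR). It was the only gene of the list called in a comparison with control.

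Of 18 histone chaperone genes, 0 were called between gag and control (edgeR, 4 at an unadjusted p under 0.05). With gag-pol 5 rose, CHAF1B, NASP, SUPT16H, RBBP7 (edgeR, log2 fold change 0.41, SE 0.09, adjusted p = 0.00483) and HJURP (0.43, SE 0.09, adjusted p = 0.00331, edgeR). With NC 4 rose, RBBP7, HJURP, NAP1L1 and SUPT16H, and DAXX, which deposits a replacement H3, fell (edgeR, log2 fold change -0.34, SE 0.08, adjusted p = 0.0087). CHAF1B, NASP and SUPT16H were named after their values were seen. The shares over all genes were 1.08% with gag, 11.3% with gag-pol and 11.2% with NC.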

How the data were processed

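RNA from 12 transfected HEK293 cultures was poly(A)-selected and sequenced as paired-end reads. Per the paper's methods and the submitters' processing notes, the authors aligned reads with STAR 2.7.3 to GRCh38, handled them with SAMtools 1.8 and deposited raw counts per gene made with featureCounts. The annotation release and the settings for strand and multiply mapped reads are not given in the sources used here.

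Counts were tested with edgeR 4.0.16 in R 4.3.3 (quasi-likelihood F test, TMM factors, filterByExpr with a minimum count of 10 and a minimum total of 15). The model held construct and replicate number. The study's model held harvest date, which the labels do not give, and the replicate number (passage) was used in its place. The p-values were adjusted by Benjamini-Hochberg over 17176 genes and called under 0.05. The log2 fold changes are edgeR's. The replicate numbers paired the libraries: deviations from the group means correlated by 0.138 to 0.539 over 18 same-numbered pairs and by -0.498 to 0.072 over 36 others. The replicates are passages of 1 cell line. As the model held the replicate number, differences shared by all libraries of a passage were taken out. The p-values measure the spread that remained, with 6 residual degrees of freedom. The script was tested on simulated data.

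Named genes were the members called in any comparison of constructs, the most counted member of each family, the member with the largest change against control in each comparison, SLBP, and up to 4 genes per list called against control. The members and lists were chosen with earlier results of these data known. Alternatives were DESeq2 1.42.0, other scalings and filters, no PEG10, no replicate block, only the libraries compared and each library left out.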

Additional observations from a re-analysis of the deposited data

How the results depend on the processing

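The replicate block decided the calls. With no replicate block, the number of members called was 0 in each of the 6 comparisons of constructs and 0 in the F test of all constructs, and at most 3 of all 17176 genes were called, while the members' median log2 fold change kept its sign in each comparison (0.48 for gag against control, -0.69 for gag-pol against gag and -0.54 for NC against gag). For gag against control the number was 7 without a filter and 7 with only the libraries compared, and for gag-pol against control it was 1 with only the libraries compared. For NC against control it was 1 with upper-quartile factors, 1 with PEG10 left out and 1 without a filter. The other numbers were within 1.5 times the main ones under the other planned settings, DESeq2 included. With at least 10 counts in every library, 29 members could be tested and 9 were lower in gag-pol than in gag and 9 in NC than in gag.

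With 1 library left out at a time, the number called ranged from 1 to 5 for gag-pol against control, 1 to 9 for gag against control, 0 to 3 for NC against control, 1 to 14 for gag-pol against gag, 3 to 14 for NC against gag, 6 to 12 for the average of gag-pol and NC against the other groups, 5 to 18 for the F test of all constructs and 7 to 20 for the F test of replicate numbers. Counts moved by over 1.5 times as follows. Gag-pol against control gave 5 without control replicate 1 and 1 without control replicate 2 or gag-pol replicate 1. NC against control gave 1 without control replicate 2, gag-pol replicate 2, gag replicate 2, NC replicate 1 or NC replicate 2, and 0 without control replicate 3 or NC replicate 3. The F test of all constructs gave 5 without gag replicate 1 and 11 without gag replicate 2, and that of replicate numbers gave 20 when gag-pol replicate 3 and 7 when NC replicate 1 was left out. The libraries that moved the other counts are named with those results. Counts over all genes in the fits without 1 library are not given here, so none of these moves can be read as particular to histone genes. The cause was not tested.

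Over the 43 called log2 fold changes of single members, 270 of 318 values under other settings kept the call and 48 lost it, and 398 of 516 values without 1 library (chosen after seeing the data) kept it and 118 lost it. The sign reversed in 0 of them. Depth also limits the members: 24 of 73 were not tested, and 33 of the 49 tested had a mean under 100 normalized counts.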
